A study of Mus musculus with 6 samples.

Results

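The genes described here belong to the urea cycle and to the nitrogen metabolism of periportal hepatocytes, the liver cells that blood from the portal vein reaches first. The set names 9 genes, Arg1, Cps1, Ass1, Asl, Otc, Etnppl, Gls2, Hal and Sds, and a probe was taken for a gene when the symbol in its description, or the accession it was designed from, pointed to that gene. By this rule 7 of the 9 genes had a probe, with 1 probe each among 20868 on the array, and all 7 were tested. Cps1 and Gls2 had no probe by the rule and are not analysed here. The probe described as Sds carries an accession that RefSeq gives to Sdsl, a related gene. It is called the Sds-labelled probe below, and 6 members are unambiguous.

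The series compared RNA of mouse liver and liver tumour on 6 Agilent arrays with 2 colours, arranged as 3 pairs of 2 arrays with the dyes exchanged within each pair. It looked for genes that depend on CAR, the nuclear receptor through which phenobarbital acts on the liver, and that are induced as liver tumours develop. All mice were 39 weeks old, of the C3H/HeNCrlBR(C3He) background strain, and all had received diethylnitrosamine (DEN), a carcinogen that starts liver tumours. After DEN, 3 of the 4 groups drank water with phenobarbital (PB), a tumour promoter: WT tumour, CAR-KO liver (called CAR-KO DEN-PB liver here) and WT liver. The fourth was liver of CAR-KO mice given DEN without PB (CAR-KO DEN liver). Tumour, CAR-KO DEN liver and WT liver each filled 2 array channels, once in Cy3 and once in Cy5, and CAR-KO DEN-PB liver filled 6. The labels do not say how many animals gave each RNA, whether RNA was pooled, whether the 2 arrays of a pair held the same extracts, or whether the CAR-KO DEN-PB liver was the same RNA in all 3 pairs. The spread behind the p-values is thus that of arrays with exchanged dyes, and it may be technical only.

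Hepatocytes dispose of ammonium, which is toxic, by building it into urea. Cps1 joins ammonium and bicarbonate to carbamoyl phosphate inside mitochondria, Otc passes that group to ornithine to make citrulline, Ass1 adds aspartate to citrulline, Asl splits the product into arginine and fumarate, and Arg1 cuts arginine into urea and ornithine. Around the cycle stand enzymes that release ammonium: Gls2, the liver glutaminase, Hal, which takes ammonium off histidine, Sds, which takes it off serine, and Etnppl, which breaks down phosphoethanolamine. These enzymes are known to be more abundant around the portal vein, while a thin rim of hepatocytes around the central vein catches the remaining ammonium with glutamine synthetase.

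In RefSeq's GRCm38.p6 annotation the measured urea cycle genes lie at chrX:10252230-10321024 (Otc), chr2:31470270-31520670 (Ass1), chr5:130011258-130024381 (Asl) and chr10:24915207-24927470 (Arg1). Etnppl lies at chr3:130617448-130635750, Hal at chr10:93488768-93516761 and Sds at chr5:120476547-120483932. The files name no genome build and do not place the probes within these genes. RefSeq promoter windows were held for 4 of the 9 genes, 5 windows in all. The 250 bases before the annotated start are shown for the member that changed most, Etnppl (first of its 2 windows), for the urea cycle member Ass1, and for Hal. Capitals mark matches to the letters searched.
Etnppl, chr3:130617198-130617447, plus strand: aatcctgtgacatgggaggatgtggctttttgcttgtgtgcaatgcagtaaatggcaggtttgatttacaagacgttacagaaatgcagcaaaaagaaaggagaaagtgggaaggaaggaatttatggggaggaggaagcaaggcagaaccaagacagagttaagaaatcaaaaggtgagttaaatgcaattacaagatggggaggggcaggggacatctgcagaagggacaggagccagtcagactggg
Ass1, chr2:31470020-31470269, plus strand: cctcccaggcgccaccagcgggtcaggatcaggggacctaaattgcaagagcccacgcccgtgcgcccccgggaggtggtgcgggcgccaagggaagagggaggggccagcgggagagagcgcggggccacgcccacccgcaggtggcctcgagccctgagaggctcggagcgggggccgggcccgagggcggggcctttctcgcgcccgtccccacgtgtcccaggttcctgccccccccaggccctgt
Hal, chr10:93488518-93488767, plus strand: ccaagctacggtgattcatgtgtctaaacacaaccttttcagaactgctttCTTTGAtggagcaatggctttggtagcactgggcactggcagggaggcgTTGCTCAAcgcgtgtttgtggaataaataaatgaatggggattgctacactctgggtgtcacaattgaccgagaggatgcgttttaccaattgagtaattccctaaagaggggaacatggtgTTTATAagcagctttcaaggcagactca
The letters searched on both strands were TGACGTCA and its part TGACG (cAMP response element, held by 1.79% and 20.8% of 32851 such windows of 300 bases), TTGCNNAA (C/EBP, 10.8%), TGNACTTTG (HNF4, 1.41%), the HNF1 motif (0.399%), the glucocorticoid response element (0.414%), CTTTGA (TCF/LEF core, 16%) and TATAAA (a core promoter box, 13.6%). The Hal window held CTTTGA at -199 and TTGCNNAA at -150 on the plus strand and TATAAA at -28 on the minus strand, counted from the start site. The other 4 windows held none of these letters, which says only that these letters are not in the windows. The members' upstream bases were not alike in composition: G and C made up 75.6% of them in Ass1, 46% and 55.6% in the first and second window of Etnppl, 45.6% in Hal and 43.6% in Otc, beside a median of 52.4% over all windows. No factor's binding was measured here, so a match is a description of the sequence.

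Nr1i3, the gene of CAR, had signals of 310.4 to 456.8 in tumour, 94.81 to 175.3 in CAR-KO DEN-PB liver, 87.68 to 121.9 in CAR-KO DEN liver and 245.8 to 247.1 in WT liver, so both CAR-KO groups lay below both WT groups. In limma its log2 ratio of CAR-KO over WT liver was -0.785 ± 0.16 and did not pass (adjusted p = 0.4119). Its ratio of tumour over CAR-KO liver was 1.81 ± 0.16 and passed (adjusted p = 0.001942). Every channel was well above background, and where the probe lies relative to the deleted part is not given in the sources used here. Array 2 of the tumour pair had median local backgrounds of 288 (Cy3) and 299 (Cy5), against 53 to 62 on the other 5 arrays, and was read with another version of the scanner software. Array 2 of the PB pair had the lowest median Cy5 signal (129.4) and the lowest share of Cy5 spots well above background (84.44%, against 89.34% to 93.12% on the other arrays). Hepatocyte markers were bright in every channel: the summed signal of 5 measured genes was 99959 to 113466 in tumour, 98421 to 158212 in CAR-KO DEN-PB liver, 85756 to 116624 in CAR-KO DEN liver and 107070 to 109881 in WT liver. No hepatocyte marker passed the test in any comparison.

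The tumour pair set WT tumour against CAR-KO DEN-PB liver, and its ratios are given as tumour over CAR-KO, the opposite of the order in the sample descriptions, while the titles follow the dyes and give both orders. Genotype and tissue state both differ here and cannot be told apart. The members were lower in tumour as a group of values: all 7 log2 ratios of tumour over CAR-KO liver were negative on both arrays, with a median of -1.11, where the median of all probes was -0.006. Etnppl, Arg1 and Ass1 passed the test and fell, and Hal, Asl, Otc and the Sds-labelled probe did not pass. The test was limma's moderated test on all 6 arrays with Benjamini-Hochberg adjustment over all probes tested, at an adjusted p under 0.05. By it 3 of 7 members were lower and 0 higher, beside 3.36% of 20744 probes called, 0.839% lower and 2.53% higher. On the arrays themselves the members' median was -1.112 (array 1) and -1.108 (array 2). In the fit it was -1.74 without array 1 of the tumour pair and -0.47 without array 2, with all 7 ratios still negative. When an array is left out, its pair's dye effect comes from the other pairs alone. Such values are thus not the plain ratio of the array that remains. With the Agilent processed log ratio the directions held, but no member or other probe passed (Etnppl -2.55, adjusted p = 0.1114). Arg1 and Ass1 were also not called with array weights (adjusted p = 0.1732 and 0.1936) or without a dye effect (0.1153 and 0.2152). With median centring in place of loess, 2370 probes were called higher and 1763 lower, against 524 and 174 here. In tissue RNA, fewer hepatocytes of the periportal kind and less RNA per cell cannot be told apart.

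The signals given from here on are normalized array intensities that contain the offset of 50 added in background correction, which makes ratios of dim probes smaller. They compare groups for 1 probe and are not set against another probe's. The share of all probes with tumour channels below all CAR-KO DEN-PB channels was not counted. Where groups are said not to overlap, this describes the gene and is no test. Every channel of the 7 members was well above background and none was saturated. Order in the cycle is followed below, beginning with Otc.

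Otc, the mitochondrial step, had signals of 195.6 and 188.6 in tumour, against 241.5 to 408.1 (median 288) in the 6 channels of CAR-KO DEN-PB liver. The groups did not overlap. The log2 ratio was -0.71 ± 0.22 (2 arrays, with the SE taken from the fit on all 6 arrays). It was -0.36 on array 1 and -1.06 on array 2, and the difference did not pass (adjusted p = 0.1242). It passed at -1.18 with array 1 of this pair left out (adjusted p = 0.01251), and with array 2 left out it was -0.24 (adjusted p = 0.4909).

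Ass1, which adds the second nitrogen of urea by way of aspartate, had 487.5 and 323.5 in tumour, against 889.1 to 1166 (median 1090) in CAR-KO DEN-PB liver. Both tumour values lay well below the lowest CAR-KO value. Ass1 was 2.77-fold lower in tumour (log2 ratio -1.47 ± 0.30, -1.84 and -1.11 on the arrays, adjusted p = 0.04663). The call was close to the threshold and did not hold without background subtraction (-1.32, adjusted p = 0.05882). It was also lost when array 2 of this pair, the one with the high local background, was left out (fitted ratio -0.96). The dye effect of that fit came from the other pairs alone. The plain ratio of array 1, which remained, was -1.84, a larger fall than the -1.11 of array 2.

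Asl, which yields arginine, had 1160 and 777.9 in tumour, against 1276 to 1775 (median 1621) in CAR-KO DEN-PB liver. The tumour channels were again the lowest. Its log2 ratio of -0.86 ± 0.35 (-1.11 and -0.61 on the arrays) did not pass (adjusted p = 0.1956). It was -1.41 with array 1 of this pair left out, -0.32 with array 2 left out and -0.28 with median centring.

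Arg1, the step that releases urea, had 640.8 and 452.9 in tumour, against 1479 to 1914 (median 1574) in CAR-KO DEN-PB liver. No tumour value came near the CAR-KO range. Arg1 was 3.09-fold lower in tumour (log2 ratio -1.63 ± 0.31, -1.82 and -1.44 on the arrays, adjusted p = 0.03745). Among the 4 urea cycle enzymes measured, 2 fell, and the median log2 ratio was -1.17.

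Etnppl changed most among the members. Its signals were 232.5 and 226.5 in tumour, against 970.5 to 1400 (median 1120) in CAR-KO DEN-PB liver, and both dyes gave nearly the same tumour value. It was 5.18-fold lower in tumour (log2 ratio -2.37 ± 0.16, -2.27 and -2.48 on the arrays, adjusted p = 0.0009533), the second-lowest log2 ratio among 20744 probes. Arg1 stood at rank 26 and Ass1 at rank 46 from the lowest.

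Hal had 150.8 and 132.7 in tumour, against 255.5 to 350 (median 286.9) in CAR-KO DEN-PB liver, so the groups were apart. Its log2 ratio of -1.11 ± 0.24 (-1 and -1.21 on the arrays) missed the threshold (adjusted p = 0.05801). It passed with array 1 of this pair left out (-1.74, adjusted p = 0.0006836), with median centring (-1.05, adjusted p = 0.01656) and with probes kept only where well above background on all arrays (adjusted p = 0.04848), and was -0.47 with array 2 left out (adjusted p = 0.1422). The Sds-labelled probe lay close to the offset and did not separate the groups: 106.5 and 119.8 in tumour, against 112.2 to 142.4 (median 126.4) in CAR-KO DEN-PB liver, with a log2 ratio of -0.11 ± 0.15 (adjusted p = 0.7029). Without this probe the members' median was -1.29.

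**Figure D1:**
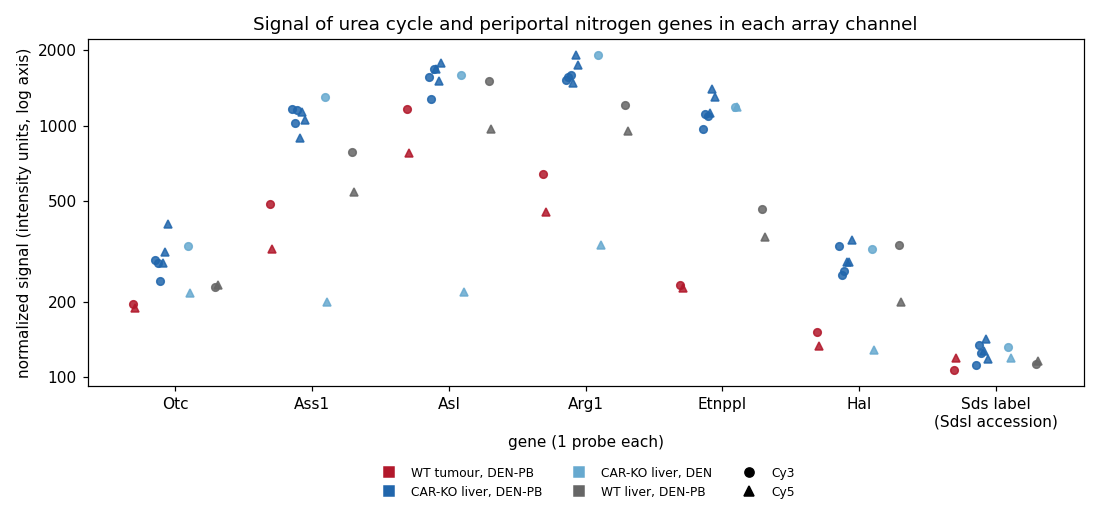
Normalized signal (intensity units, log axis) of the 7 measured probes in each of the 12 array channels, with a colour per group, circles for Cy3 and triangles for Cy5. The 2 tumour points lie below all 6 points of CAR-KO DEN-PB liver for every gene except the Sds-labelled probe. How many of all probes show this was not counted. The Cy5 point of CAR-KO DEN liver lies far below its Cy3 point for Ass1, Asl, Arg1 and Hal.

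The comparison of CAR-KO with WT liver, both given DEN and then PB, asks which genes depend on CAR. The ratios are given as CAR-KO over WT, which is again the opposite of the order in the sample descriptions. Etnppl was higher in CAR-KO liver and was the member that passed: its signals were 970.5 and 1126 on this pair in CAR-KO liver, against 465.7 and 361.2 in WT liver. The log2 ratio was 1.35 ± 0.16, or 2.55-fold (1.27 and 1.43 on the arrays, adjusted p = 0.04973). With 1 of 7 members higher and 0 lower, the background was 0.101% of 20743 probes called, 0.00964% higher and 0.0916% lower. In limma 471 probes had an unadjusted p under 0.05 here, where chance gives 1037. Etnppl was 1 of only 2 probes called higher in this comparison.

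The Etnppl call lay at the threshold. Over 14 alternatives the log2 ratio was 1.14 to 1.56 and the adjusted p 0.0004622 to 0.9999, and the call was lost without either array of this pair (adjusted p = 0.7366 without array 1 and 0.9999 without array 2) or either array of the PB pair (adjusted p = 0.2731 each). It was also lost with the Agilent processed log ratio (adjusted p = 0.5166), without a dye effect (0.05527) and without the filter on dim probes (0.05207), and moved to an adjusted p of 0.05025 when spots flagged as outliers were kept in the normalization curve.

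The other 6 ratios of CAR-KO over WT liver were positive and did not pass. Ass1 had signals of 1166 and 889.1 in CAR-KO liver on this pair, against 786 and 544.6 in WT liver, and a log2 ratio of 0.64 ± 0.30 (0.18 and 1.10 on the arrays). For Arg1 the signals were 1520 and 1479 in CAR-KO liver, against 1213 and 955.6 in WT liver, with a log2 ratio of 0.48 ± 0.31 (0.29 and 0.67). In these urea cycle genes the values of CAR-KO liver were above those of WT liver in both dyes, and neither difference passed the test. Asl (0.43 ± 0.35), Otc (0.32 ± 0.22), Hal (0.26 ± 0.24) and the Sds-labelled probe (0.06 ± 0.15) had smaller ratios, and Hal and the Sds-labelled probe changed sign between the arrays. The members' median was 0.43, beside 0.015 for all probes, and on the arrays themselves it was 0.178 (array 1) and 0.692 (array 2). In the fit it was 0.27 without array 1 of this pair, with Asl and the Sds-labelled probe negative, and 0.93 without array 2. The dye effect of these fits came from the other pairs alone. On the arrays themselves Asl was positive both times (0.16 and 0.692).

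CAR-KO DEN-PB liver was set against CAR-KO DEN liver, a comparison of PB without CAR. No member passed, and neither did any of 20742 probes (0%) in limma, while 565 probes had an unadjusted p under 0.05, where chance gives 1037. The 2 arrays of this pair differed widely for several members. Arg1 had a log2 ratio of 0.008 on array 1 and 2.21 on array 2 (fit 1.11 ± 0.31), Ass1 had -0.21 and 2.36 (1.08 ± 0.30), and Asl had -0.09 and 2.55 (1.23 ± 0.35). The members' median was -0.08 on array 1, with 4 of 7 ratios negative, and 0.99 on array 2, with 1 negative.

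The signals show where the arrays parted. In CAR-KO DEN liver, Asl had 1595 in the Cy3 channel of array 1 and 218.5 in the Cy5 channel of array 2. Arg1 had 1904 and 335.3 in these channels, Ass1 1304 and 199.3, and Hal 323.2 and 128.5. Etnppl did not share this gap, with 1191 and 1190, against 970.5 to 1400 in CAR-KO DEN-PB liver, and its log2 ratio was 0.07 ± 0.16. Otc had 332.9 and 215.7 in CAR-KO DEN liver, with a log2 ratio of 0.16 ± 0.22, and the Sds-labelled probe 131.9 and 119.4, with 0.14 ± 0.15. Over all probes the turned ratios of this pair's arrays correlated at r = -0.347 across probes, which are not independent replicates, and at 0.169 after the fitted dye effect was taken off. For the tumour pair these values were 0.391 and 0.648, and for the pair of CAR-KO and WT liver 0.0294 and 0.217. The part of the low Cy5 signal of array 2 in these ratios was not tested.

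**Figure D2:**
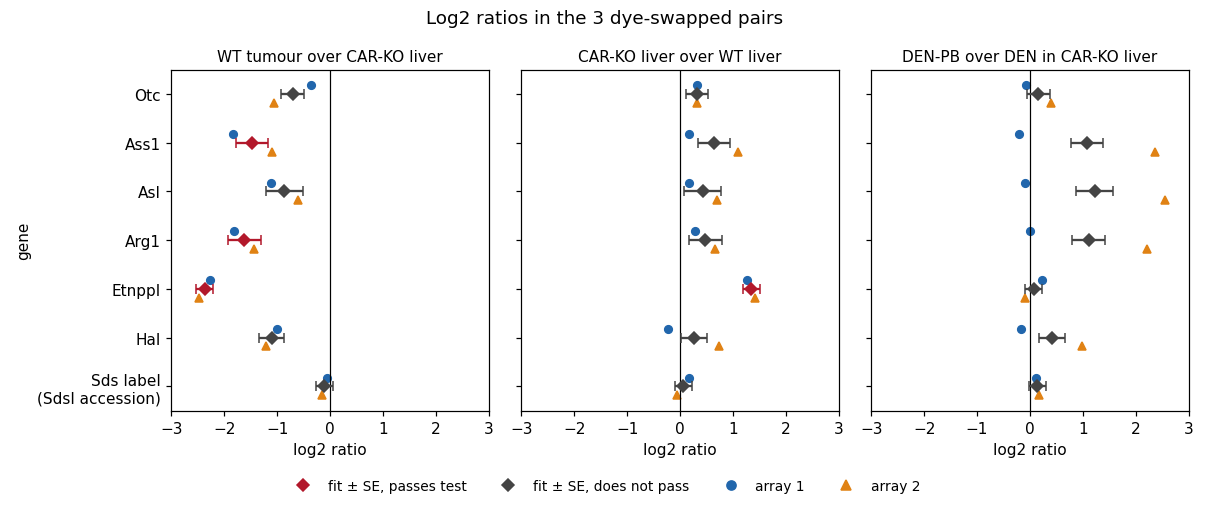
Log2 ratios of the 7 measured probes in the 3 dye-swapped pairs, with the fitted value ± SE as a diamond (red where it passed the test) and the ratio on each array as a circle or triangle. In tumour over CAR-KO liver all array values are negative, while in DEN-PB over DEN the array 2 values of Ass1, Asl and Arg1 lie above 2 and those of array 1 near 0.

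WT tumour and WT liver met on no array, and their ratio was taken through CAR-KO liver in the same fit. It thus shares its samples with the direct comparisons, so their values are given side by side and not as separate evidence. All 7 ratios of tumour over WT liver were negative, with a median of -0.83 beside -0.007 for all probes (-0.21 without array 2 of the tumour pair, -0.47 without array 2 of the CAR-KO and WT pair and -0.28 with median centring), and no member passed. None of 20743 probes did (0%) in limma, where 1737 had an unadjusted p under 0.05 and the smallest adjusted p was 0.137. Arg1 had a log2 ratio of -1.15 ± 0.44, Etnppl -1.02 ± 0.23 (adjusted p = 0.327), Hal -0.85 ± 0.34 and Ass1 -0.83 ± 0.43. The signals of tumour lay below those of WT liver for Etnppl (232.5 and 226.5 in tumour, against 465.7 and 361.2 in WT liver) and for Arg1 (640.8 and 452.9 in tumour, against 1213 and 955.6 in WT liver). Asl (-0.44 ± 0.50), Otc (-0.39 ± 0.30) and the Sds-labelled probe (-0.05 ± 0.22) had the smallest ratios. Etnppl passed when array 2 of the tumour pair was left out (-0.97, adjusted p = 0.04285), and Hal when array 1 was (-1.49, adjusted p = 0.02154), while Hal had -0.21 (adjusted p = 0.6456) without array 2.

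By median signal, Etnppl had 229.5 in tumour, 1120 in CAR-KO DEN-PB liver, 1190 in CAR-KO DEN liver and 413.4 in WT liver. WT liver thus lay between tumour and CAR-KO liver, with no overlap of channels, and the 2 CAR-KO groups overlapped. For Arg1 the medians were 546.8 in tumour, 1574 in CAR-KO DEN-PB liver, 1120 in CAR-KO DEN liver and 1084 in WT liver. For Ass1 they were 405.5, 1090, 751.6 and 665.3 in the same groups. For these 2 genes the channels of CAR-KO DEN liver spanned all or nearly all of the ranges of the other groups, so its place in the order is not settled.

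Partners of the cycle were measured in part. Of 15 listed partners and carriers 7 were measured, and 1 fell in tumour over CAR-KO liver: Got1, the cytosolic transaminase that makes aspartate, with a log2 ratio of -1.52 ± 0.19 (adjusted p = 0.007188). Car5a, the mitochondrial carbonic anhydrase that supplies bicarbonate to Cps1, had -1.39 ± 0.34 (adjusted p = 0.07957). Slc25a15, the mitochondrial ornithine carrier, had -0.56 ± 0.17 (adjusted p = 0.1227), and Arg2, the mitochondrial arginase, had 0.42 ± 0.15 (adjusted p = 0.1586). These last 3 genes lie outside the naming rule and were chosen after their values were seen. The list's median was 0.014. None of the 7 passed in CAR-KO over WT liver.

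Of 36 listed genes of amino acid breakdown 21 were measured, and 5 fell and 0 rose in tumour over CAR-KO liver (median -0.35). The 4 largest falls were those of Gldc, part of the glycine cleavage system (-1.65 ± 0.16), Gnmt, which methylates glycine (-1.60 ± 0.29), Ftcd of the histidine pathway downstream of Hal (-1.21 ± 0.16), and Agxt, which moves the amino group of alanine to glyoxylate (-1.05 ± 0.16). Of 12 listed amino acid and ammonium transporters 9 were measured. Slc7a5, a carrier of large neutral amino acids, rose (0.96 ± 0.15, adjusted p = 0.01896) and none fell. Of 14 listed regulators of urea cycle genes 12 were measured and none passed (ratios of -0.53 to 0.46).

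Zonation genes outside the members moved in 2 directions in tumour over CAR-KO liver. Of 12 listed other periportal genes 9 were measured, and 5 fell and 1 rose (median -1.31). Cyp2f2, a periportal cytochrome P450, fell (-2.05 ± 0.17), as did Pck1, the enzyme that commits carbon to glucose synthesis (-1.79 ± 0.16), and Pigr, the receptor that carries antibodies into bile (-1.69 ± 0.27). The one that rose was Apoa4, an apolipoprotein (2.31 ± 0.24). All 4 pericentral nitrogen genes rose: Rhbg, an ammonium transporter (3.24 ± 0.17), Glul, glutamine synthetase (3.20 ± 0.24), Slc1a2, a glutamate carrier (1.78 ± 0.17), and Oat, ornithine aminotransferase (1.67 ± 0.16). In CAR-KO over WT liver, Rhbg fell (-2.17 ± 0.17, adjusted p = 0.005798) and Glul had -1.77 ± 0.24 (adjusted p = 0.09059), while Etnppl rose. No test of the difference between periportal and pericentral lists was made.

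**Figure D3:**
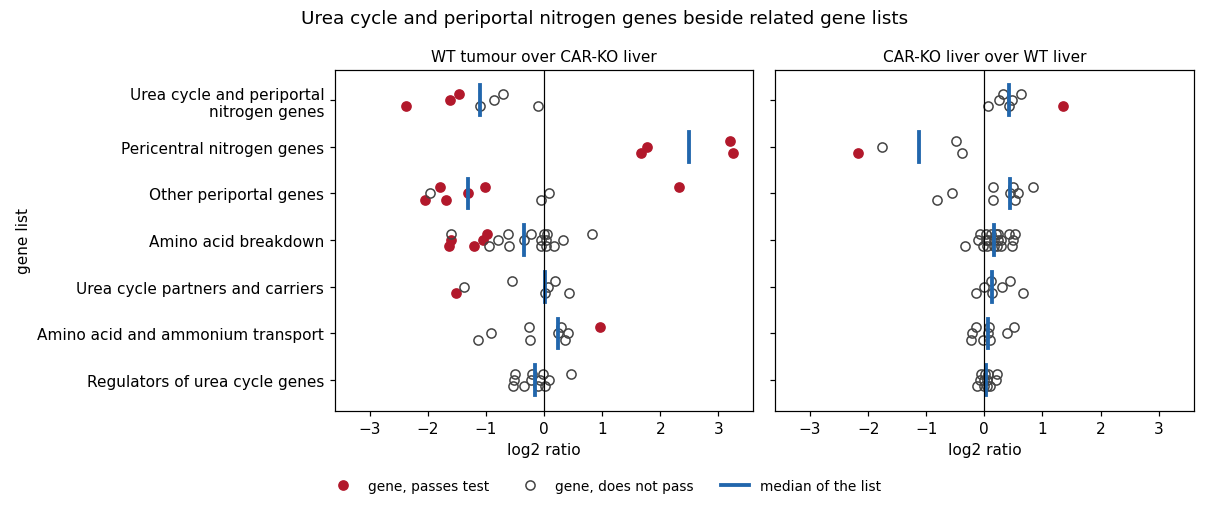
Log2 ratios of the measured genes of 7 lists, as filled points where a gene passed the test and open points where it did not, with the list's median as a bar. In tumour over CAR-KO liver the members and the other periportal genes have medians of -1.11 and -1.31 and the pericentral nitrogen genes a median of 2.49, while in CAR-KO over WT liver these medians are 0.43, 0.44 and -1.13.

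Markers of other cells were set beside the tumour values. In tumour over CAR-KO liver the hepatocyte markers had a median of -0.26 over 5 genes, with 0 called, beside -1.11 for the members. Among 12 macrophage, 9 lymphocyte, 8 endothelial, 7 neutrophil and 6 pancreatic acinar markers measured 0 passed. Of 6 bile duct markers Krt19 rose (1.13 ± 0.17), of 6 markers of stellate cells and fibroblasts Dcn fell (-1.34 ± 0.20), and of 4 erythroid markers Hba-a1 fell (-1.09 ± 0.16). The summed erythroid signal was 5078 to 5531 in tumour, against 9360 to 11355 in CAR-KO DEN-PB liver. The erythroid markers did not move alike: Epb42 had a log2 ratio of 0.001 ± 0.16 and Slc4a1 0.19 ± 0.16, and neither passed. The bile duct sum was 1105 to 1355 in tumour, against 1098 to 1436 in CAR-KO DEN-PB liver, and the sum of stellate cell and fibroblast markers 1384 to 1597 in tumour, against 1645 to 2087 in CAR-KO DEN-PB liver. The part of these markers in the members' ratios was not tested.

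The 5 genes whose 6 array ratios lay nearest to the members' median profile, after the dye effect was taken off, were G6pc, which releases glucose from hepatocytes (Euclidean distance 0.465), Cyp46a1, a cholesterol hydroxylase (0.536), Cyp8b1, which sets the kind of bile acid made (0.541), Slc3a1, a subunit of a carrier for cystine and basic amino acids (0.552), and Pglyrp2, a liver-secreted amidase (0.638). The distances are over 6 arrays in log2 units, and the median distance of 9196 candidate genes was 2.07. Of the members themselves, Hal (0.676) and Otc (0.849) were nearest to their own median profile and Etnppl (2.34) was farthest.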

How the data were processed

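For every spot the deposited scanner files give the mean signal and the median local background, in intensity units as the authors' scanner read them, and processed intensities that Feature Extraction had background-subtracted and dye-normalized. The deposited log10 ratio divides the red by the green processed signal. The deposited value table holds the same log10 ratios (largest difference 0). Other deposited columns are flags of each spot, which the authors' software set. Its version was 7.1.1 for 5 arrays and 7.5.1 for the second tumour array, per the file headers. The submitters' processing notes name 7.5.

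Background correction of the mean signals used normexp (offset 50), followed by loess within arrays, with weight 0 for control and outlier-flagged spots, in limma 3.58.1 under R 4.3.3. Flagged spots were set to missing and spots averaged per probe. Log2 ratios were computed here from the deposited intensities and turned so that the group named first is on top. They were fitted on all 6 arrays with a dye effect per probe and 3 contrasts (lmFit, eBayes), which left 2 residual degrees of freedom beside 5.48 prior ones. Signals per channel were further quantile-normalized over average intensity. Tested were the 20744 probes that had a channel well above background on 2 or more arrays. Tests were 2-sided, with Benjamini-Hochberg adjustment. SE is limma's standard error, and the number of arrays limits the precision. Its spread is pooled over all 6 arrays, so the SE of a pair also carries the scatter of the other pairs. The fit was also run on simulated ratios with independent normal errors, which checks the code and not these arrays.

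Symbols came from RefSeq accessions first (8947 probes), then from the probe description (246) or an older symbol (261), and 11414 probes had none. The members, lists and motifs were chosen with earlier results of these data known. All members with a probe are named, with up to 4 called genes of each list by largest change, and the 5 genes nearest to the members' median profile. Alternatives changed the background correction, normalization, array weights, dye effect, filter and arrays. A batch term for the other version of the scanner software could not be fitted apart from its array.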

Additional observations from a re-analysis of the deposited data

How the results depend on the processing

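Of 392 recomputed member ratios and their calls, 359 kept their direction and side of the threshold, 17 kept the direction and lost the call, 6 gained it and 10 changed sign. The cause was not tested for any of these. Members called in tumour over CAR-KO liver numbered 3, against 0 with the Agilent processed log ratio, 1 with array weights, 1 without a dye effect, 2 without background subtraction, 4 with median centring, 4 with probes kept only where well above background on all arrays and 2 to 5 when 1 array was left out. In CAR-KO over WT liver the count of 1 became 0 with the Agilent processed log ratio, without a dye effect, without the filter on dim probes and with flagged spots kept in the loess curve (an alternative chosen after seeing the data), and was 0 to 1 when 1 array was left out. It stayed 0 in DEN-PB over DEN under every alternative run, and was 0 to 1 in tumour over WT liver when 1 array was left out. Over all probes, 698 were called in tumour over CAR-KO liver, against 0 with the Agilent processed log ratio, 4133 with median centring, 240 with array weights and 285 to 4707 when 1 array was left out. In CAR-KO over WT liver 21 were called, against 0 with the Agilent processed log ratio, 78 with array weights and 4 to 94 when 1 array was left out. DEN-PB over DEN had 0, 1 with array weights and 0 to 6 when 1 array was left out, and tumour over WT liver had 0, 47 with median centring and 0 to 2164 when 1 array was left out. The changes of sign were all in ratios that did not pass. When 1 array was left out, Asl ran from -0.092 (without array 1 of the pair) to 0.944 in CAR-KO over WT liver and from -0.981 to 0.106 (without array 2 of the tumour pair) in tumour over WT liver, where it was also 0.081 without array 2 of the CAR-KO and WT pair and 0.257 with median centring. Otc ran from -0.257 (without array 2 of the pair) to 0.575 in DEN-PB over DEN and from -0.864 to 0.085 (without array 2 of the tumour pair) in tumour over WT liver. Etnppl ran from -0.08 (without array 1 of the pair) to 0.22 in DEN-PB over DEN. The Sds-labelled probe ran from -0.044 (without array 1 of the pair) to 0.171 in CAR-KO over WT liver and from -0.152 to 0.063 (without array 2 of the CAR-KO and WT pair) in tumour over WT liver, where it was 0.058 with the Agilent processed log ratio. A pair left with 1 array takes its spread and its dye effect from the other arrays. Its fitted ratio is thus not the plain ratio of the array that remains. The groups of each direct comparison share an array, so their ratios are taken within arrays and are paired in that way. The replicate numbers only order the dye-swapped arrays, so no further pairing was made. The mean of a gene's probes gave no value, since no member had several.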

Other observations

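Probes whose descriptions name an enzyme related to Cps1, Gls2 or Sds, and that no symbol ties to a member, were also read. They were chosen by their descriptions and are not counted above. A probe described as a homolog of the liver isoform of glutaminase had signals of 787.4 and 584.2 in tumour, against 2541 to 3489 (median 2737) in CAR-KO DEN-PB liver, and fell in tumour over CAR-KO liver (log2 ratio -2.28 ± 0.16, limma adjusted p = 0.0009533), the third-lowest of all probes and next to Etnppl. In CAR-KO over WT liver it had 0.69 ± 0.16 (adjusted p = 0.7088). A probe described as weakly similar to carbamoyl-phosphate synthase had signals of 1938 and 1112 in tumour, against 4372 to 6469 (median 5086) in CAR-KO DEN-PB liver, and fell as well (-2.02 ± 0.19, adjusted p = 0.002046). A probe described as similar to serine dehydratase had 336 and 286.5 in tumour, against 659 to 853.9 (median 755.3) in CAR-KO DEN-PB liver, with a log2 ratio of -1.37 ± 0.33 that did not pass (adjusted p = 0.07279). A probe described as CAD protein, the enzyme that starts pyrimidine synthesis, did not share these falls. Its log2 ratio of tumour over CAR-KO liver was -0.34 ± 0.92 (-0.71 and 0.028 on the arrays, adjusted p = 0.8536). This probe was flagged as saturated on array 2 of the tumour pair. The descriptions are those of the array's design, and the files do not say which genes these probes detect.

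The gap between the 2 channels of CAR-KO DEN liver was largest, among the probes read here, for the probe described as CAD protein. It had 24170 in the Cy3 channel of array 1 and 366.2 in the Cy5 channel of array 2, against 17990 to 29460 in CAR-KO DEN-PB liver. Its log2 ratios of DEN-PB over DEN were -0.41 on array 1 and 6.33 on array 2. The probe similar to serine dehydratase showed 1056 and 172.5 in the same 2 channels, against 659 to 853.9 in CAR-KO DEN-PB liver, while the probe similar to carbamoyl-phosphate synthase had 5768 and 6659, against 4372 to 6469. So the gap was present for some nitrogen probes (Ass1, Asl, Arg1, Hal) and not for others (Etnppl). The arrays also differed outside nitrogen genes. In DEN-PB over DEN the median of 5 hepatocyte markers was -0.145 on array 1 and 0.602 on array 2. For 8 endothelial markers it was 0.077 and 0.007. No cause was tested.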
